A study of Rattus norvegicus with 9 samples.

Results

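The genes described here are those of glutathione metabolism on a rat kidney array. They are the glutathione transferases of the alpha, mu, pi, theta, omega and kappa classes, the microsomal transferases and the glutathione peroxidases. The enzymes that make and recycle glutathione are included too. A probe was taken when its RefSeq identifier mapped to a current rat symbol beginning with Gsta, Gstm, Gstp, Gstt, Gsto, Gstk, Gstz, Gstcd, Mgst or Gpx, or to Gclc, Gclm, Gss, Gsr, Ggt1, Oplah or Chac1. This gave 36 genes on 38 probes, of 13903 genes and 24684 probes in all, with 2 probes each for Gsta3 and Gpx4. Signal was high enough to test 34 of the 38 probes, for 32 genes, and 27 of those probes were well above background on all 9 arrays. Of the 47 protein-coding rat genes that meet the same rule in the RefSeq table, those with no matched probe (among them Gsto1, Gstz1, Gstcd, Ggt1, Chac1 and Mgst3) were not analysed here.

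Glutathione is a tripeptide of glutamate, cysteine and glycine that cells use to neutralise peroxides and reactive chemicals. Glutamate-cysteine ligase (catalytic subunit Gclc, modifier subunit Gclm) and glutathione synthetase (Gss) build it, transferases join it to electrophiles, peroxidases spend it on reducing peroxides, and glutathione reductase (Gsr) restores the oxidised form. The kidney takes up and breaks down circulating glutathione at the brush border of the proximal tubule, and proximal tubule cells express alpha-class transferases at high levels. Many of these genes are targets of the transcription factor NRF2, which binds the antioxidant response element (ARE).

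RNA came from whole kidneys of male rats aged 53 days, weaned at 30 days and then fed chow with 0.3% salt. The 3 inbred strains, with 3 rats in each, were Dahl S, a salt-sensitive line that becomes hypertensive on a high-salt diet, SHR, the spontaneously hypertensive rat, and Dahl R, the salt-resistant counterpart of Dahl S. The labels give no treatment other than this diet for any group. Each animal was hybridised to 1 one-colour array, and whether litters were shared is not given, so p-values measure the spread between these samples. Levels are on a log2 scale, with 0 at the 75th percentile of signal on the same array, and differences are log2 differences with their standard error (SE). A difference passed when limma's p, adjusted by Benjamini-Hochberg over 16592 tested probes, was under 0.05.

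SHR replicate 3 stood apart from the other 8 arrays before any comparison. Its 75th percentile signal was 1462, against 2120 to 2751 on the others, its median local background was 88 against 43 to 45, and 43.1% of its probes were well above background, against 60.1% to 70.3%. On that array 9 tested member probes were marked as outlier spots and left out there (Gclm, Gpx1, both Gpx4 probes, Gpx8, Gss, 1 Gsta3 probe, Gsta4 and Gstp1). Scan times in the headers fall into 3 groups: Dahl S 1 to 3 with Dahl R 1, then SHR 1 and 2 with Dahl R 2 and 3, then SHR 3 alone. No scan group held both Dahl S and SHR, so a block fit links these strains only through Dahl R. As a check of the tissue, summed proximal tubule marker signal was 1327 to 1403 in Dahl S, 1188 to 1276 in SHR and 1269 to 1461 in Dahl R (in units of the array's 75th percentile). These sums keep marked spots, of which SHR replicate 3 had 7 among 17, and without that array SHR spanned 1188 to 1224, below every Dahl R kidney. Summed liver markers lay between 0.192 and 0.52 on all arrays.

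Promoter sequences are shown for some of the genes that passed. Gsta2, Gsta4 and Gstm1 differed between the Dahl strains, and Gsta1, Gsta3 and Gstp1 differed between SHR and Dahl R. Each runs 5′ to 3′ from 250 bases before to 50 bases after the annotated start, from RefSeq (GRCr8). Capitals mark matches on either strand to the ARE core, TGACNNNGC. Gsta5, Gsta6 and Gstm2 also passed between SHR and Dahl R, and their promoters, not shown, hold 0 such matches. Gstt2 passed there too, but no promoter was available for it. Gsta3 has 2 annotated starts, which were not assigned to its 2 probes.
Gsta2 (chr8:88077043-88077342, minus strand): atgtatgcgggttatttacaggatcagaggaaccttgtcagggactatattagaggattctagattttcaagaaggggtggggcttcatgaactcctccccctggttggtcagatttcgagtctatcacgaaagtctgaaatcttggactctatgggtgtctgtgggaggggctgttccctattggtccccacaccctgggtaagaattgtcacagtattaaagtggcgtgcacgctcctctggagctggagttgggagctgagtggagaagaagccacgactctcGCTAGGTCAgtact
Gsta4 (chr8:87947015-87947314, plus strand): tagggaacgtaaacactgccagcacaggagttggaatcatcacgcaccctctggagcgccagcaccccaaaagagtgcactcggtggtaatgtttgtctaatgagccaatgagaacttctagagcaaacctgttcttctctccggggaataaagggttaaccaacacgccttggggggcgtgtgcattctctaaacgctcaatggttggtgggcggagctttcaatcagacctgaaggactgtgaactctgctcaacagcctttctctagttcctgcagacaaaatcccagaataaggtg
Gstm1 (chr2:198343334-198343633, minus strand): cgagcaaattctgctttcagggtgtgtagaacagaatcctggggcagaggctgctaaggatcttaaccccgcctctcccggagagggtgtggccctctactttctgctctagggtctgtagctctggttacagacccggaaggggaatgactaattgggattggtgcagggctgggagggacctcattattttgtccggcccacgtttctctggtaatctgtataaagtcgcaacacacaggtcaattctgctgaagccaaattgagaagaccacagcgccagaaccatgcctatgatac
Gsta1 (chr9:31216483-31216782, minus strand): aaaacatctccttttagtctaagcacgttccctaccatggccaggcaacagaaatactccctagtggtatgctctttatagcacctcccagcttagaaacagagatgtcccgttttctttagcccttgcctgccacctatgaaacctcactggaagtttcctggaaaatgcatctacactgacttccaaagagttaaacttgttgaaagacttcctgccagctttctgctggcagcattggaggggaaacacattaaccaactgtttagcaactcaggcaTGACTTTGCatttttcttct
Gsta3, first start (chr9:31154739-31155038, plus strand): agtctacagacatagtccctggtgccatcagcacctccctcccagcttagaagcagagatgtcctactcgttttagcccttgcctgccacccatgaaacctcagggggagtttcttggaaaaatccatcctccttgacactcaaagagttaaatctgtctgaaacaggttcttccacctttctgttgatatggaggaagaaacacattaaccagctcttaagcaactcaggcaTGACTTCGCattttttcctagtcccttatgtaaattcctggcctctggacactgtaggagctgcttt
Gsta3, second start (chr9:31166793-31167092, plus strand): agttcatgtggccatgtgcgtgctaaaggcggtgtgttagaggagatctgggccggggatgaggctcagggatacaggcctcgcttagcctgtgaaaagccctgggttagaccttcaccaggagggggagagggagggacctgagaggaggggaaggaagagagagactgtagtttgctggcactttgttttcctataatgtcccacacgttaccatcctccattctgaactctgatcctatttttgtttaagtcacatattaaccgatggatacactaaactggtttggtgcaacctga
Gstp1 (chr1:210769656-210769955, minus strand): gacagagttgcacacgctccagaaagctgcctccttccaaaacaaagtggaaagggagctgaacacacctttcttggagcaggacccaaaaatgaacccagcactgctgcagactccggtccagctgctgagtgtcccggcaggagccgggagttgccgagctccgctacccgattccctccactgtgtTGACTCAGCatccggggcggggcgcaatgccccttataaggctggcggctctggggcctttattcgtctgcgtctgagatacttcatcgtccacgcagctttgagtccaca

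The ARE core was found in 8 of 33 member promoters (24.2%), which belong to 29 genes, against 12.1% of all 33469 rat promoters of the same 300-base length. The 8 genes were Gstp1, Gstm5, Gstm7, Gclm, Gpx2, Gsta2, Gsta3 and Gsta1, and 5 of them are among the 10 genes with a promoter that passed in a comparison. In Gstp1 the match began 61 bases before the start and overlaps a match to the AP-1 motif, TGANTCA, which like the ARE core was searched on both strands. In Gsta3 it began 17 bases before the first start and in Gsta1 it lay within the transcribed part, from position 31. In Gsta2 it lay on the opposite strand from position 37. The Gsta1 promoter and the first Gsta3 promoter also share a run of 20 bases, tttagcccttgcctgccacc, from position -133 of Gsta1 and -179 of Gsta3, counted back from the start. The AP-1 motif was in 3 member promoters (9.09%) against 7.33% of all promoters. These are matches of letters in 1 window, and binding was not measured.

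Between the Dahl strains, 2 alpha-class transferases were lower in Dahl S and 1 mu-class transferase was higher, and the peroxidases and the synthesis enzymes did not pass. Of 34 tested member probes 3 passed, against a background of 1.40% of all tested probes (233 of 16592), with 0.705% higher and 0.699% lower. Alpha transferases conjugate lipid-derived electrophiles and reduce lipid hydroperoxides. Gsta2 measured 7.04, 6.88 and 6.76 in the 3 Dahl S kidneys, against 7.87, 7.54 and 7.82 in the Dahl R kidneys. All Dahl S values lay below all Dahl R values, with the 3 SHR kidneys at 7.27 to 7.49 in between. The difference was -0.85 ± 0.13 (limma, adjusted p = 0.0225), 1.80-fold lower in Dahl S. Gsta4, which is specialised for the lipid peroxidation product 4-hydroxynonenal, measured 5.59, 5.50 and 5.63 in Dahl S and 6.32, 6.27 and 6.22 in Dahl R. The groups were again separate, the difference being -0.69 ± 0.09 (limma, adjusted p = 0.0160). Gsta5, whose enzyme detoxifies aflatoxin epoxide in rat liver, measured 4.73, 4.43 and 4.63 in Dahl S and 5.08, 5.20 and 4.998 in Dahl R, a difference of -0.50 that did not pass (limma, adjusted p = 0.0864).

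Gstm1, a mu-class transferase, moved the other way. It measured 1.75, 1.58 and 1.37 in Dahl S, against 0.53, 0.76 and 0.53 in Dahl R. The lowest Dahl S kidney lay above the highest Dahl R kidney, and the difference was 0.96 ± 0.17 (limma, adjusted p = 0.0437), 1.95-fold higher in Dahl S. Its neighbour Gstm2 had values of -0.11, -0.16 and -0.33 in Dahl S and -0.66, -0.52 and -0.83 in Dahl R, which did not overlap, but its difference of 0.47 did not pass (limma, adjusted p = 0.154). Over all members, values of Dahl S and Dahl R did not overlap for 14 of 34 probes, against 31.1% of all probes, and the median member difference was -0.10, against 0.02 over all tested probes. Red blood cell markers moved along with this comparison. All 5 had Dahl S values above Dahl R values, with a median difference of 1.00 and none past the threshold by limma (4 at an unadjusted p under 0.05). For Hba-a2, each strain had only 1 usable array. Their summed signal was 287 to 364 in Dahl S against 245 to 267 in Dahl R. Most of that sum came from Hbb, which averaged 8.06 in Dahl S and 7.86 in Dahl R. The part of these markers in the results was not tested.

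These 3 calls kept their direction in every alternative, but several alternatives ended them. Within the first scan group the differences were -0.97 for Gsta2, -0.75 for Gsta4 and 1.04 for Gstm1; its single Dahl R array is too few for a test to bear on the calls. The call of Gsta2 was lost without Dahl S replicate 2 or 3 or Dahl R replicate 1 or 3 (limma, adjusted p = 0.103 to 0.118), that of Gsta4 without any 1 of the 6 Dahl arrays (0.0608 to 0.113), and that of Gstm1 without any 1 of them or SHR replicate 2 (0.0691 to 0.184). Without SHR replicate 3 all 3 passed, and so did Gsta5 (-0.50, limma, adjusted p = 0.0412) and the Gsta3 probe NM_001159739.1 (-0.43, limma, adjusted p = 0.0346).

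**Figure D1:**
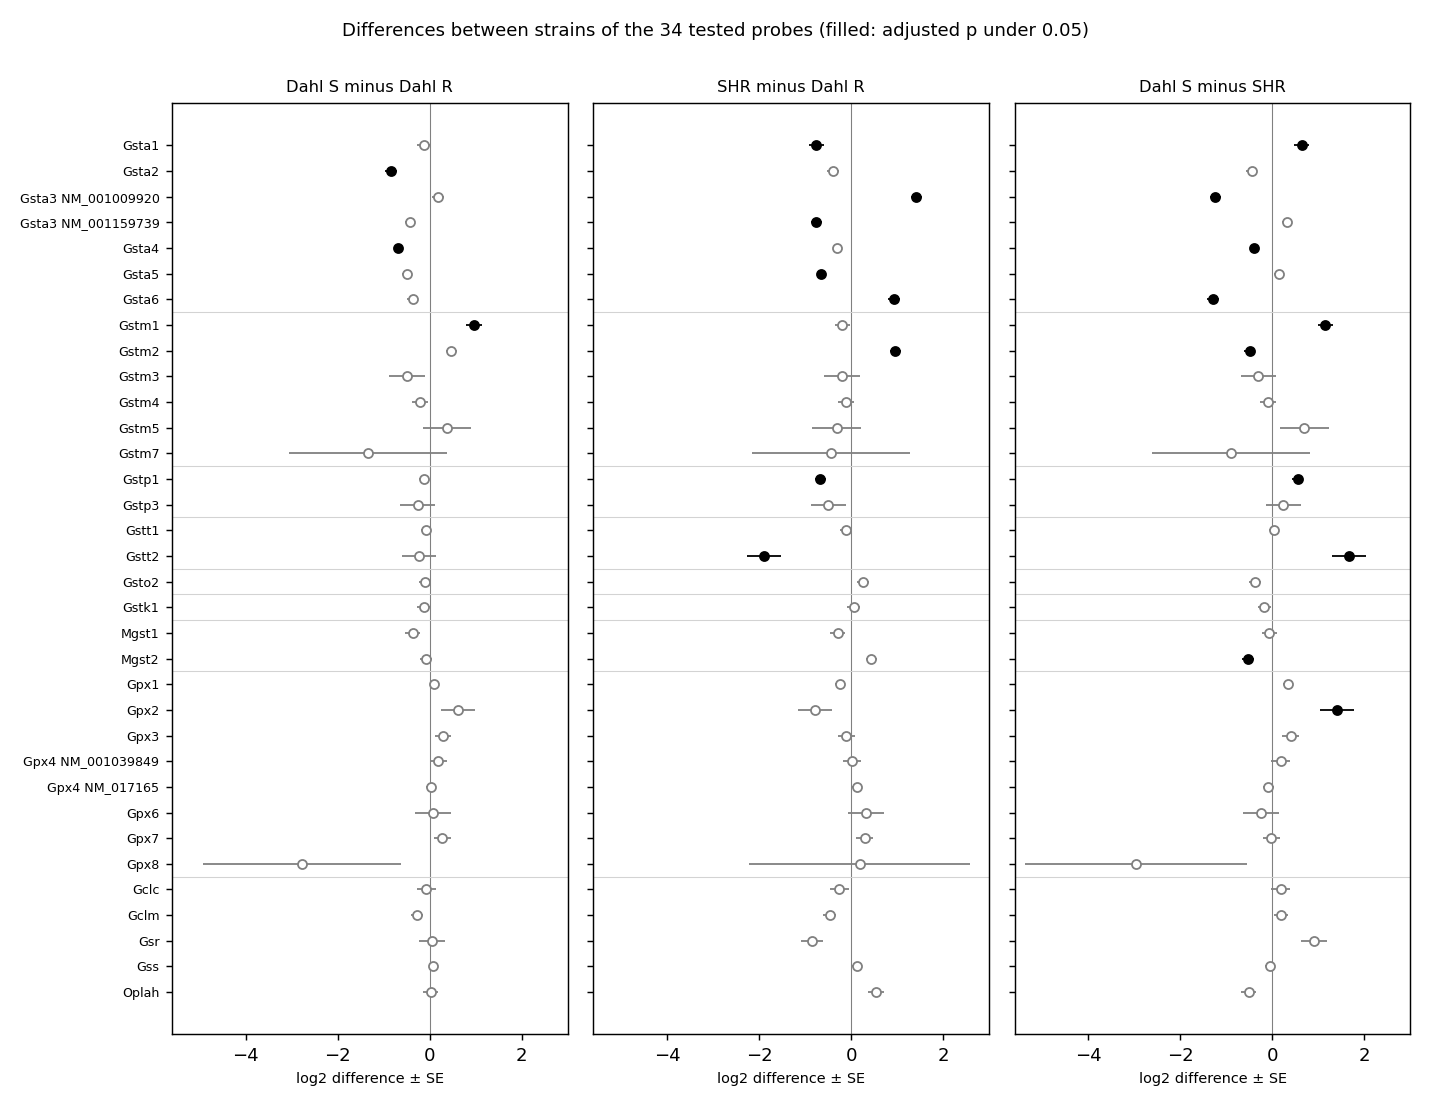
Log2 differences (x axis, ± SE) of the 34 tested member probes (rows, grouped by class with grey lines between classes) in the 3 comparisons, with filled points past the adjusted p of 0.05. Filled points lie mostly among the alpha and mu transferases at the top; the 5 synthesis and recycling genes at the bottom have none, and the wide bars of Gstm7 and Gpx8 come from 1 Dahl S array.

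Between SHR and Dahl R, 5 of 7 tested alpha-class probes passed, 2 higher and 3 lower in SHR, with 1 call each in the mu, pi and theta classes. In total 8 of 34 member probes passed, 3 higher and 5 lower, against a background of 13.0% of all tested probes (7.56% higher and 5.49% lower). Values did not overlap for 19 of 34 probes, against 38.7% of all probes. The median member difference was -0.19, against 0.11 over all tested probes. In whole-kidney RNA, fewer cells of a type and less RNA per cell cannot be told apart. This comparison shares its Dahl R arrays with the previous one.

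The 2 probes for Gsta3 went in opposite directions. The probe for NM_001009920.1 measured 2.37, 2.25 and 2.65 in SHR, against 0.86, 1.09 and 1.06 in Dahl R, and the SHR values lay above all 6 Dahl values. Its difference was 1.42 ± 0.13 (limma, adjusted p = 0.000479), 2.68-fold higher in SHR. The probe for NM_001159739.1 measured 2.24 and 2.25 on the 2 usable SHR arrays, against 3.00, 3.06 and 2.94 in Dahl R. Here SHR was lower, by -0.75 ± 0.11 (limma, adjusted p = 0.00723), with SHR replicate 3 marked and left out. Kept in, that spot read 2.31. Both identifiers carry the symbol Gsta3, so the data give no single direction for this gene, and the files hold no probe sequences with which to place the 2 probes on its transcripts.

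The other alpha transferases in this comparison were Gsta1, Gsta5 and Gsta6. Gsta1, a broad-specificity form, measured 6.25, 5.98 and 6.47 in SHR, against 7.12, 6.82 and 7.04 in Dahl R, with no overlap. It fell by 0.76 on the log2 scale (limma, adjusted p = 0.0197), and the Dahl S values of 7.04, 6.87 and 6.69 overlapped those of Dahl R. Gsta5 measured 4.40, 4.50 and 4.45 in SHR, a difference of -0.64 ± 0.11 from Dahl R (limma, adjusted p = 0.00786), so that in both SHR and Dahl S its values lay below the 3 Dahl R kidneys. Gsta6 was dim, at -4.30, -3.97 and -3.95 in SHR and -4.87, -5.07 and -5.07 in Dahl R. It was higher in SHR by 0.93 ± 0.13 (limma, adjusted p = 0.00327), but was not well above background on SHR replicate 3 or on 1 Dahl S array, and with normexp background correction the call was lost (limma, adjusted p = 0.687).

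In the RefSeq table Gsta2, Gsta4 and Gsta5 lie together on chromosome 8, and Gsta1, Gsta3 and Gsta6 on chromosome 9. All 3 genes on chromosome 8 had their lowest Dahl R kidney above their highest SHR and highest Dahl S kidney. Their SHR minus Dahl R differences were -0.39 for Gsta2, -0.30 for Gsta4 and -0.64 for Gsta5, of which that of Gsta5 passed, and without SHR replicate 3 all 3 passed (limma, adjusted p = 0.0413, 0.0279 and 0.00781). On chromosome 9, Gsta1 was lower in SHR, Gsta6 was higher, and the Gsta3 probes split. Signal from near-identical paralogs cannot be separated with these files.

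Outside the alpha class, Gstm2, Gstp1 and Gstt2 passed. Gstm2 measured 0.15, 0.39 and 0.34 in SHR, against -0.66, -0.52 and -0.83 in Dahl R. The groups were well apart, with a difference of 0.96 ± 0.12 (limma, adjusted p = 0.00226), 1.95-fold higher in SHR. Gstp1, the pi-class transferase that also binds stress kinases, measured 4.42 and 4.35 in SHR, against 5.02, 5.13 and 5.02 in Dahl R. It was lower in SHR by -0.67 ± 0.12 (limma, adjusted p = 0.0166), but the spot left out on SHR replicate 3 read 5.11, at the Dahl R level, and with it kept the difference was -0.43 (limma, adjusted p = 0.231). Gstt2, a theta-class transferase active on sulfate esters, measured 2.13, 2.21 and 0.75 in SHR, against 3.67, 3.76 and 3.35 in Dahl R. All 3 SHR kidneys were low, SHR replicate 3 most of all, and the difference of -1.90 ± 0.37 (limma, adjusted p = 0.0152) was -1.42 without that array (adjusted p = 0.00109).

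Within the second scan group, with 2 arrays of each strain, all 8 calls were kept. The differences there were -0.81 for Gsta1, 1.23 and -0.75 for the Gsta3 probes, -0.65 for Gsta5, 0.93 for Gsta6, 0.94 for Gstm2, -0.69 for Gstp1 and -1.38 for Gstt2. The call was lost for Gsta1 without Dahl R replicate 1 or 3 (limma, adjusted p = 0.0828 and 0.0753), for Gstt2 without Dahl R replicate 1 or 2 (0.0620 and 0.0667), and for Gstp1 without any 1 Dahl R array or SHR replicate 2 (0.0581 to 0.0743).

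**Figure D2:**
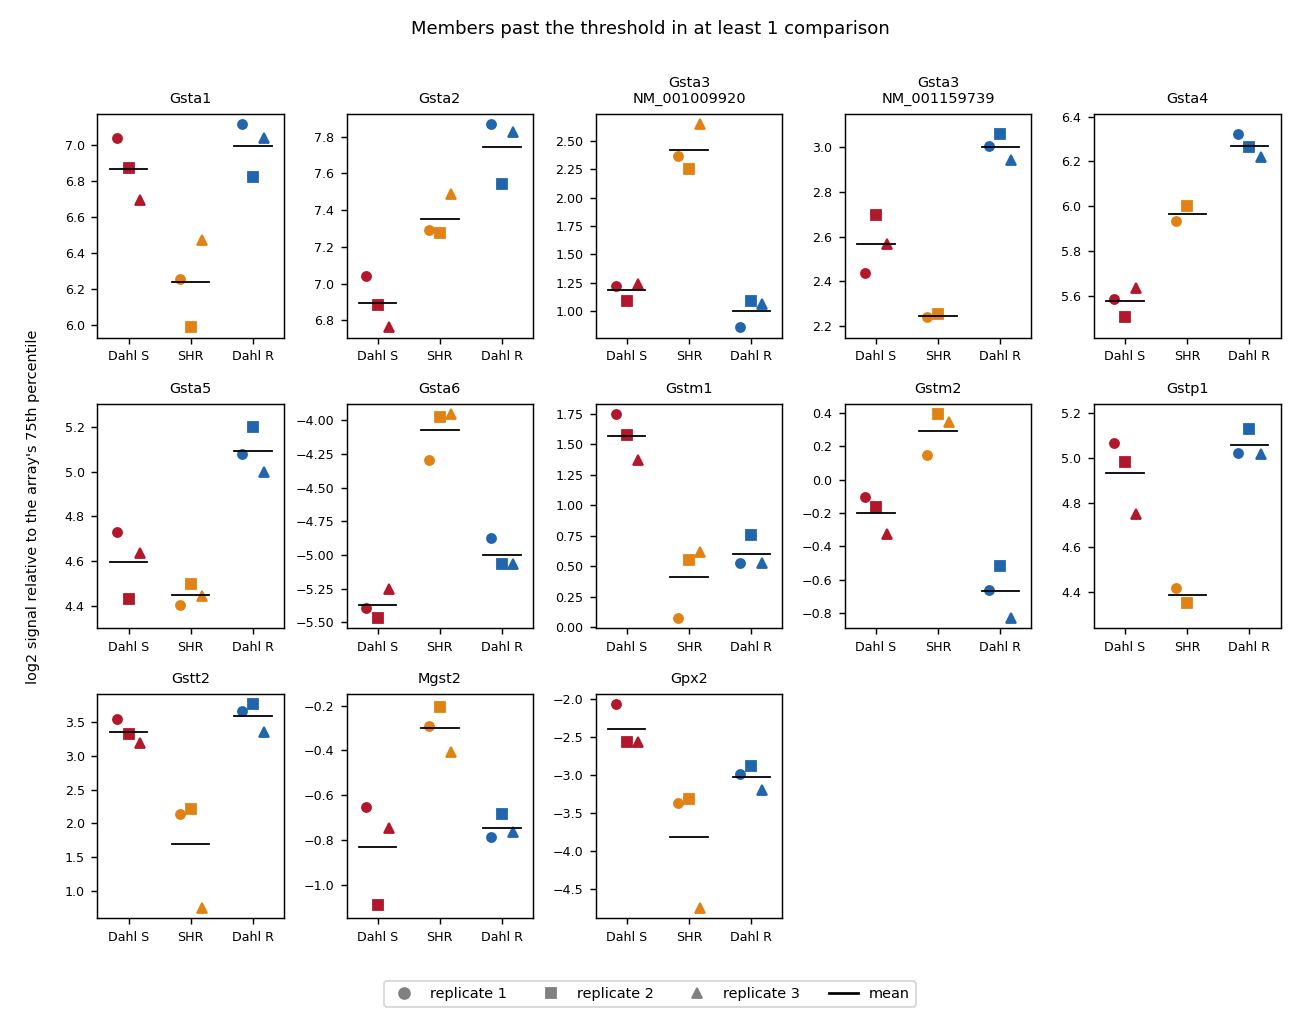
Log2 level, with 0 at the 75th percentile of each array (y axis, own scale per panel) on each array of Dahl S, SHR and Dahl R for the 13 probes past the threshold in at least 1 comparison; symbols mark replicate numbers, which do not pair animals, and lines are means. The 2 Gsta3 probes have their SHR values on opposite sides of Dahl R, and Gstm1 is high in Dahl S alone.

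Set against SHR, Dahl S had 10 member probes past the threshold, 5 higher and 5 lower, against a background of 15.7% of all tested probes (7.08% higher and 8.62% lower). Values did not overlap for 18 of 34, against 37.9% of all probes, and the median member difference was -0.04, against -0.09. Dahl S was higher for Gstm1 (1.15 ± 0.17, limma, adjusted p = 0.00436), which measured 0.08, 0.55 and 0.61 in SHR, and for Gstt2 (1.66 ± 0.37, limma, adjusted p = 0.0220). It was lower for Gsta6 (-1.30 ± 0.13, limma, adjusted p = 0.000606) and for the Gsta3 probe NM_001009920.1 (-1.24 ± 0.13, limma, adjusted p = 0.000812), which measured 1.22, 1.09 and 1.24 in Dahl S. Smaller differences passed for Gsta1 (0.63), Gstp1 (0.55), Gsta4 (-0.39) and Gstm2 (-0.49). Of these, Gsta4 and Gstp1 rest on 2 SHR arrays. The spot of Gsta4 left out on SHR replicate 3 read 5.39, below all 3 Dahl S kidneys, and with marked spots kept the difference was -0.20 for Gsta4 and 0.30 for Gstp1 (limma, adjusted p = 0.434 and 0.346). Gsta6 was at -5.39, -5.47 and -5.25 in Dahl S, and with normexp background correction its difference from SHR turned to 0.07.

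One microsomal transferase and 1 peroxidase passed in this comparison. Mgst2, a membrane enzyme that can make leukotriene C4, measured -0.65, -1.09 and -0.75 in Dahl S, against -0.29, -0.21 and -0.41 in SHR, a difference of -0.53 ± 0.13 (limma, adjusted p = 0.0306). The strains did not overlap, and the Dahl R kidneys, at -0.79, -0.68 and -0.76, lay within the Dahl S range. Gpx2, the gastrointestinal-type peroxidase, measured -2.07, -2.57 and -2.56 in Dahl S, against -3.37, -3.31 and -4.75 in SHR. All 3 Dahl S values were higher, by 1.41 ± 0.37 (limma, adjusted p = 0.0399), and the lowest SHR value came from replicate 3, where the probe was not well above background. Without that array the Gpx2 difference was 0.94 (limma, adjusted p = 0.00847).

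With scan as a block, 2 of the 10 calls were kept, Gsta6 (-1.43, limma, adjusted p = 0.0190) and the Gsta3 probe NM_001009920.1 (-0.91, limma, adjusted p = 0.0235). That fit drops SHR replicate 3 and links Dahl S to SHR only through the Dahl R arrays. The calls of Gsta3, Gsta6 and Gstm1 held without any 1 array. Those of Gsta1, Gsta4, Gstm2, Gstp1, Gstt2, Mgst2 and Gpx2 were each lost without at least 3 single arrays in turn, with adjusted p of 0.0506 to 0.133 by limma and differences between 0.36 and 1.74 in size; the arrays included Dahl S replicate 2 for all 7.

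**Figure D3:**
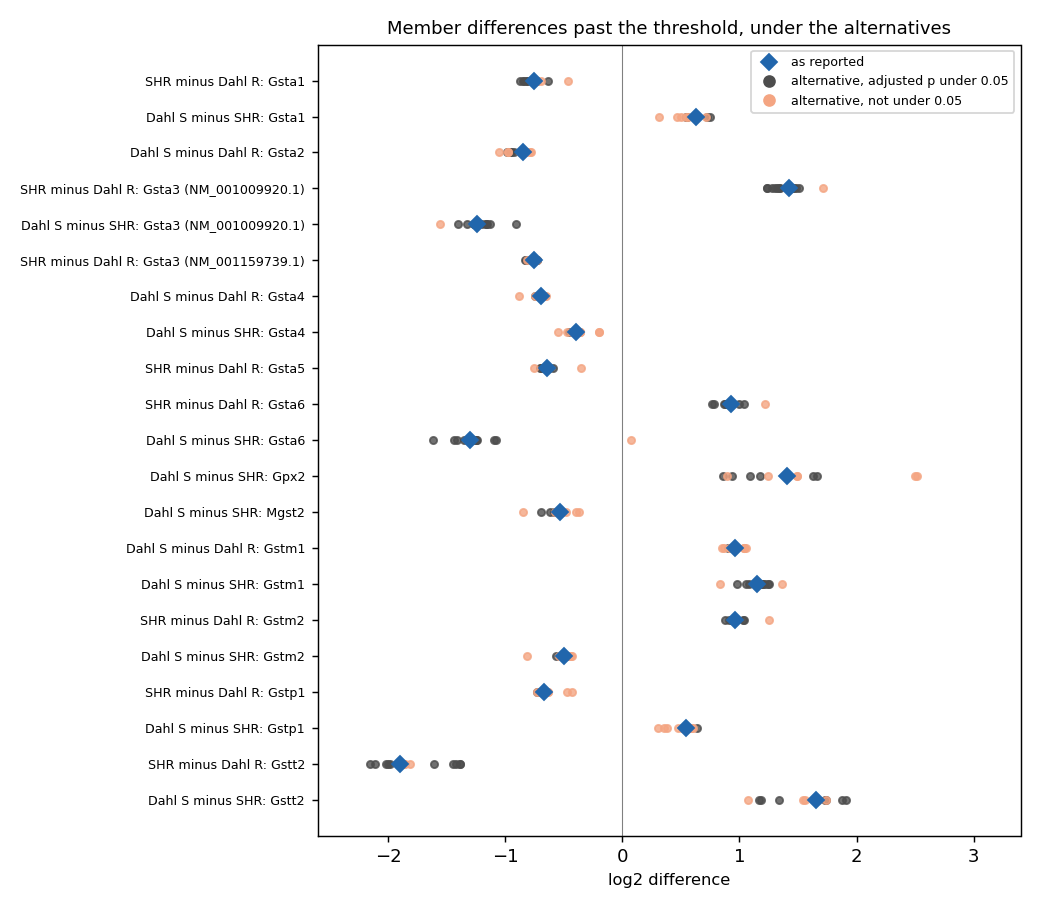
Log2 differences (x axis) of the 21 member results past the threshold (rows) as reported (diamonds) and under each alternative setting (circles, dark where the adjusted p stayed under 0.05). Only Gsta6 in Dahl S minus SHR crosses 0, under normexp; many pale circles show calls that were lost without a change of direction.

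The enzymes that make and recycle glutathione were among the members that passed in no comparison. Gclc, the rate-limiting catalytic subunit, measured 8.02, 7.91 and 7.43 in Dahl S, 7.59, 7.93 and 7.31 in SHR, and 7.95, 7.69 and 7.94 in Dahl R. The strains overlapped, and the 95% interval of the SHR minus Dahl R difference was -0.74 to 0.23. Gclm measured 6.18, 6.26 and 5.92 in Dahl S, 5.89 and 5.99 in SHR, and 6.53, 6.27 and 6.39 in Dahl R. Its SHR values lay below the Dahl R values, with a difference of -0.46 that did not pass (limma, adjusted p = 0.0854). Without SHR replicate 3 in the fit it passed (0.0412), but the Gclm spot left out there read 6.28, within the Dahl R range, and with it kept the difference was -0.35 (0.182). Gss, which adds glycine, measured 5.85, 5.87 and 5.93 in Dahl S, 5.98 and 5.90 in SHR, and 5.84, 5.89 and 5.71 in Dahl R, and its differences were between -0.05 and 0.12.

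Gsr, the reductase, measured 0.99 and 0.89 in Dahl S and 0.89, 0.84 and 0.93 in Dahl R, while SHR read 0.64, -0.28 and -0.24. All SHR values were below all Dahl values, but SHR replicate 1 lay close to them, and neither the SHR minus Dahl R difference of -0.85 (limma, adjusted p = 0.0712) nor the Dahl S minus SHR difference of 0.90 (0.0760) passed. Without SHR replicate 1 they were -1.15 (limma, adjusted p = 0.00218) and 1.20 (0.00207). The Dahl S replicate 1 spot was marked and left out, and read 0.60. Oplah, which returns 5-oxoproline to glutamate, measured 4.96, 4.90 and 5.03 in Dahl S, 5.29, 5.32 and 5.84 in SHR, and 4.74, 5.08 and 5.002 in Dahl R. SHR was above both, by 0.54 over Dahl R, without passing (limma, adjusted p = 0.0719).

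The common peroxidases also did not pass. Gpx3, the plasma peroxidase that the kidney secretes, measured 7.19, 7.08 and 6.96 in Dahl S, 6.81, 6.31 and 6.93 in SHR, and 6.76, 6.61 and 6.98 in Dahl R. The lowest Dahl S value lay just above the highest SHR value, Dahl S and Dahl R overlapped, and the Dahl S minus SHR difference of 0.40 did not pass (limma, adjusted p = 0.177, 95% interval -0.02 to 0.81). Gpx1, the cytosolic form, measured 6.42, 6.37 and 6.34 in Dahl S, 6.13 and 5.95 in SHR, and 6.30, 6.24 and 6.32 in Dahl R, and its Dahl S minus SHR difference of 0.34 did not pass (limma, adjusted p = 0.0726). It passed without SHR replicate 3 in the fit (0.0229), and with the spot left out there, which read 5.47, the difference was 0.53 (0.0733). For Gpx4, which reduces lipid hydroperoxides in membranes, all differences of its 2 probes lay between -0.09 and 0.19.

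**Figure D4:**
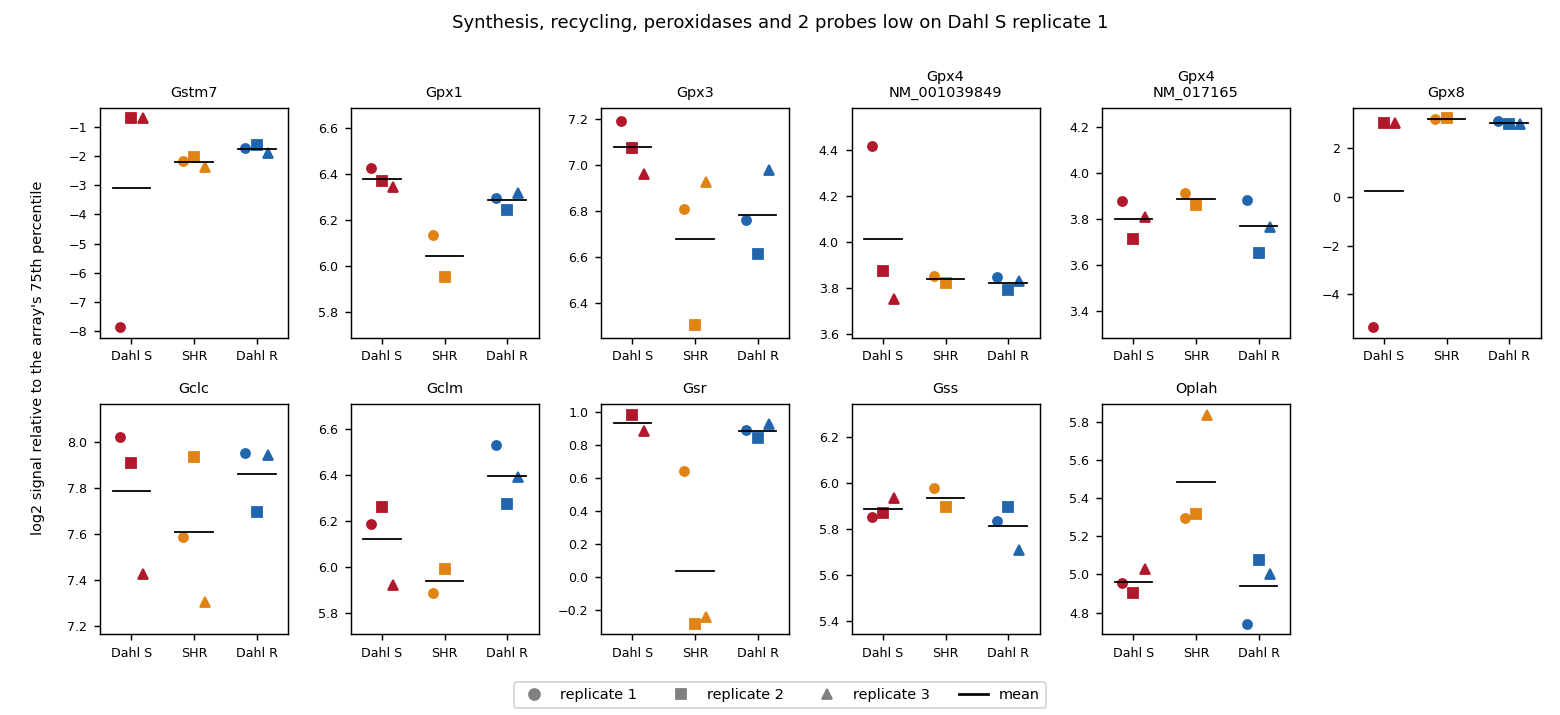
Log2 level, with 0 at the 75th percentile of each array (y axis, own scale per panel) on each array of Dahl S, SHR and Dahl R for the synthesis and recycling genes, 3 common peroxidases, and Gpx8 and Gstm7; symbols mark replicates and lines are means, and missing points are spots marked as outliers. Gpx8 and Gstm7 have 1 Dahl S point far below the other 2, and SHR lies low for Gsr and high for Oplah.

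For 2 members, 1 spot decided the value. Gstm7, a mu-class transferase, measured -7.86, -0.71 and -0.72 in Dahl S, against -2.17, -2.02 and -2.38 in SHR and -1.72, -1.63 and -1.90 in Dahl R. On Dahl S replicate 1 it was not well above background and carried no outlier mark, while the other 2 Dahl S kidneys were above all SHR and Dahl R kidneys. With that array the Dahl S minus Dahl R difference was -1.35 ± 1.72. Without it the difference was 1.03 (limma, adjusted p = 0.0335), and that of Dahl S minus SHR was 1.47 (0.00181), both of opposite sign. Gpx8, an endoplasmic reticulum peroxidase, measured -5.35, 3.00 and 3.03 in Dahl S and 3.08, 2.96 and 2.99 in Dahl R, and without that array its difference was 0.01. Gstm5 likewise rested on SHR replicate 3, where it was not well above background: it read -1.61, -1.33 and -3.62 in SHR, against -1.80, -1.88 and -1.94 in Dahl R, and its SHR minus Dahl R difference of -0.31 became 0.40 without that array (limma, adjusted p = 0.0418).

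The remaining tested members passed in no comparison, among them the brightest probe of several classes. Gstm4 averaged 2.32 ± 0.11 in Dahl S, 2.42 ± 0.36 in SHR and 2.53 ± 0.10 in Dahl R (SD, n = 3 each). Gstt1 averaged 3.97 ± 0.15 in Dahl S, 3.93 ± 0.14 in SHR and 4.05 ± 0.07 in Dahl R. Gstk1, a mitochondrial and peroxisomal enzyme, averaged 4.09 ± 0.08 in Dahl S, 4.27 ± 0.28 in SHR and 4.22 ± 0.05 in Dahl R. For all 3 genes the strain means lay within 0.21 of each other, and the widest spread was in SHR for Gstm4 and Gstk1. Mgst1, a membrane-bound transferase and peroxidase, averaged 4.85 ± 0.24 in Dahl S, 4.92 ± 0.26 in SHR and 5.21 ± 0.02 in Dahl R. Gsto2, which reduces dehydroascorbate, averaged -2.12 ± 0.06 in Dahl S, -1.75 ± 0.26 in SHR and -2.01 ± 0.03 in Dahl R. Differences of Gstm3, Gstp3, Gpx6 and Gpx7 were within 0.50 in size. Gpx5 and Gstm6l were well above background on 0 arrays, and Gstm6 and Gstt4 on 1 each, so these 4 were not tested.

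Genes around the glutathione pathway were also tested. Of 22 tested genes for the gamma-glutamyl cycle, cysteine supply and transport, 1 was higher and 8 were lower in SHR than in Dahl R, 8 and 1 in Dahl S set against SHR, and 0 passed between Dahl S and Dahl R by limma (5 at an unadjusted p under 0.05). The shares of all tested probes called in these comparisons were 13.0%, 15.7% and 1.40%. The list's median difference was -0.23 in SHR minus Dahl R, against 0.11 over all tested probes. It was -0.01 with normexp and 0.02 with the percentile over unmarked spots. That percentile also raised the median of all tested probes, given in the last section, and the list stayed below it. For normexp the median of all tested probes is not given, so its list median cannot be set beside one. Ggct, which cleaves gamma-glutamyl amino acids to 5-oxoproline, measured -4.15, -4.72 and -4.76 in SHR, against -1.75, -2.36 and -2.26 in Dahl R, and Dahl S measured -0.71, -1.25 and -0.96. SHR was below both, by -2.42 from Dahl R (limma, adjusted p = 0.000709), a 5.35-fold difference measured with 2 of 3 SHR arrays well above background, and Dahl S exceeded SHR by 3.57 (limma, adjusted p = 0.000105). Slc1a1, a glutamate and cysteine transporter, measured 0.05, 0.08 and 0.02 in SHR and 1.98, 1.68 and 1.61 in Dahl R, and was lower in SHR by -1.70 (limma, adjusted p = 0.000327). Ggact was lower in SHR by -1.16 (limma, adjusted p = 0.0309), with SHR replicates at 0.80, 0.93 and 1.94, and the call was lost without any 1 array other than SHR replicate 3 (0.0502 to 0.111). With normexp the counts for SHR minus Dahl R were 0 higher and 2 lower, and with the percentile over unmarked spots 0 and 1. The share of all tested probes called under these settings is not given, so these counts do not set the list apart from other probes.

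Of 22 genes listed for mercapturate formation and other glutathione-linked steps, 3 were higher and 2 lower in SHR than in Dahl R (13.0% of all tested probes were called), and 1 was higher in Dahl S than in Dahl R (1.40%). With normexp these counts were 0, and with the percentile over unmarked spots 1 higher and 0 lower in SHR and 0 in Dahl S. The backgrounds in this paragraph are shares of all tested probes in the fit as reported. Shares under normexp or the percentile over unmarked spots are not given. Counts of any list under those settings therefore do not set it apart from other probes. Hpgds, the glutathione-dependent prostaglandin D synthase and itself a sigma-class transferase, measured -2.97, -2.58 and -2.21 in SHR, against -4.56, -4.78 and -4.67 in Dahl R, and was higher by 2.09 (limma, adjusted p = 0.000469), with 2 of 3 SHR arrays well above background. Ptgs1, a cyclooxygenase that feeds prostaglandin synthesis and does not itself use glutathione, was higher in SHR by 0.84, and Ethe1, a mitochondrial persulfide dioxygenase, was lower by -0.82 (limma, adjusted p = 0.00534 and 0.0149), the Ethe1 call being lost without Dahl R replicate 1 or 2. Lancl1, a glutathione-binding protein, measured 3.25, 3.19 and 3.24 in Dahl S, against 2.28, 2.60 and 2.51 in Dahl R, and was higher by 0.77 (limma, adjusted p = 0.0151), a call lost without any 1 Dahl S array or Dahl R replicate 1 or 3 (0.0526 to 0.0794). Among 24 NRF2 pathway genes and targets 0 passed between Dahl S and Dahl R by limma (4 at an unadjusted p under 0.05). Under normexp or the percentile over unmarked spots this list had 0 calls between SHR and Dahl R, with no share of all tested probes given there. As reported, 2 were higher and 2 lower in SHR than in Dahl R, against the same 13.0% background. Srxn1, which repairs peroxiredoxins, was higher by 0.77, while Akr7a3 was lower by -0.52 and Ugt1a6 by -0.53 (limma, adjusted p = 0.0173, 0.0214 and 0.0348). Leaving out 1 Dahl R array lost the call of Akr7a3 (any of the 3, 0.0570 to 0.0883), of Ugt1a6 (any of the 3, and 4 of the other arrays, 0.0583 to 0.122) and of Srxn1 (replicate 2 or 3, 0.0723 and 0.0776) by limma's adjusted p. Of 19 thioredoxin, glutaredoxin and peroxiredoxin genes, 3 were lower in SHR than in Dahl R: Glrx5 by -2.21, Msra by -1.01 and Txn1 by -0.80 (limma, adjusted p = 0.00139, 0.00171 and 0.00714). That share of 15.8% is near the background of 13.0%, and with normexp the count was 1. Of 15 genes for selenoproteins and selenium supply, 1 was higher and 2 were lower in SHR than in Dahl R. That is a share of 20%, beside the background of 13.0%. They were Selenow at 0.79, Selenoi at -2.08 and Selenot at -0.69 (limma, adjusted p = 0.0133, 0.000687 and 0.0160). The calls of Selenow and Selenot were lost without Dahl R replicate 1 or 2, and that of Selenot also without replicate 3 (0.0524 to 0.0673). The list had 0 higher and 1 lower with normexp, and 0 with the percentile over unmarked spots. In Dahl S set against SHR, where 15.7% of all tested probes were called, the mercapturate list had 3 higher and 4 lower (31.8%). With normexp that list had 0 calls there, and with the percentile over unmarked spots 0 higher and 1 lower. The NRF2 list had 0 higher and 1 lower (4.17%), the thioredoxin list 3 and 1 (21.1%), and the selenoprotein list 2 and 1 (20%).

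Several lists of cell type markers moved along with strain. Of 17 tested proximal tubule markers, 4 were lower in SHR than in Dahl R, 3 higher in Dahl S set against SHR, and 0 passed between Dahl S and Dahl R by limma (4 at an unadjusted p under 0.05). Those shares, 23.5% and 17.6%, stand beside backgrounds of 13.0% and 15.7%. The 4 lower in SHR were Slc22a6 (-0.57), Slc13a3 (-0.62), Fbp1 (-0.55) and Slc4a4 (-2.58). For Slc22a6, Slc13a3 and Fbp1 only 2 SHR arrays were usable. Of 10 collecting duct markers, 6 were higher in SHR than in Dahl R, and their summed signal was 244 to 294 in Dahl S, 295 to 385 in SHR and 226 to 267 in Dahl R. Summed endothelial markers were 31.8 to 35.0 in Dahl S, 42.6 to 58.4 in SHR and 31.9 to 33.7 in Dahl R. Summed leukocyte markers were 37.2 to 45.2 in Dahl S, 27.9 to 31.9 in SHR and 33.9 to 38.4 in Dahl R. Of 9 tested leukocyte markers, 1 was higher and 2 lower in SHR than in Dahl R (33.3%, beside 13.0%). Itgam, a dim marker, went against the sum, averaging -5.00 in SHR and -6.08 in Dahl R. Summed fat cell markers were 25.0 to 40.1 in Dahl S, 49.1 to 69.4 in SHR and 34 to 46.9 in Dahl R. Summed red blood cell markers were 287 to 364 in Dahl S, 245 to 283 in SHR and 245 to 267 in Dahl R. Of 5 tested red blood cell markers, 2 (40%) were higher in Dahl S set against SHR, beside the background of 15.7%. The podocyte sums and the thick ascending limb and distal tubule sums overlapped between all strains. Podocyte markers summed to 28.3 to 34.6 in Dahl S, 27.8 to 35.1 in SHR and 32.5 to 36.0 in Dahl R. Thick ascending limb and distal tubule markers summed to 364 to 420 in Dahl S, 399 to 577 in SHR and 375 to 414 in Dahl R. The part of the marker shifts in the SHR transferase differences was not tested.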

How the data were processed

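Kidney RNA of 9 rats was measured on one-colour (Cy3) arrays. The authors deposited 1 scanner file an array, from Agilent Feature Extraction 10.5.1.1 according to the submitters' processing notes. Its signal is an intensity that, per the file headers, the scanner software had background-subtracted, detrended and floored, with no scaling between arrays. A second table of 19407 probes holds values that the authors had processed, deposited on a scale read here as log2 (r with the scanner signals of 0.974 for SHR replicate 3 and 0.999 or more for the others). Its column medians were 9.63 or 9.64, its normalization and centring are unknown, and it served as an alternative.

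Levels were computed as log2 signal minus the log2 of the array's 75th percentile, with spots marked as outliers set missing. Each member probe has 1 spot, and 0 spots were saturated. Testing required a usable spot per strain and, on 3 or more arrays, at least 0.5 of a probe's spots well above background. Strains were compared with limma 3.58.1 in R 4.3.3, all 9 arrays sharing 1 spread estimate, with Benjamini-Hochberg adjustment over all 16592 probes. The fit was tested on data simulated for Dahl S minus Dahl R, with 200 probes changed. It called 54% of changes of log2 size 1 and 79% of those of size 2, with 5 false calls among 138. Changes of these sizes can therefore be missed. With 3 arrays per strain, their number limits the precision. Symbols came from the RefSeq table through unversioned identifiers: 14294 of 24684 probes matched. The text names each member past the threshold, with array values from 1.5-fold up, the brightest tested probe per class, all synthesis genes, and the leading genes of other lists; Gstm5, Gstm7, Gpx1, Gpx4, Gpx8 and the 4 proximal tubule markers were added after their values were seen. The members and lists were chosen with earlier results of these data known. Alternatives covered normalization, background correction (normexp, offset 50, on the median signals), outlier spots, filters, scan and replicate blocks, array weights and single arrays left out. Comparison of member protein sequences was not carried out.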

Additional observations from a re-analysis of the deposited data

How the results depend on the processing

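With 3 arrays a strain, counts of calls depended on the setting. Over 431 alternative values of the 21 member results past the threshold, 430 kept their direction, 274 kept the call and 156 lost it. The 1 that reversed was Gsta6 in Dahl S minus SHR (0.0733 under normexp). Many of these values could not change direction. Leaving out an array of the third strain, changing the detection filter or fitting only the 2 strains compared leaves a difference as it was. The results had also been selected on these same arrays. All 21 calls were kept under array weights, under detection on 6 arrays and without SHR replicate 3. Against 3 members past the threshold in Dahl S minus Dahl R, there were 0 with normexp, with the percentile over unmarked spots, without a detection filter and within scan 1 (too few Dahl R arrays to bear on the calls), 1 with the authors' values and with scan as a block, 9 with array weights, and 0 to 5 without 1 array (the most without SHR replicate 3). Against 8 in SHR minus Dahl R, there were 2 with normexp, 1 with the percentile over unmarked spots and 5 (without Dahl R replicate 1) to 13 (without SHR replicate 3) without 1 array. Against 10 in Dahl S minus SHR, there were 3 with normexp, with the percentile over unmarked spots, without a detection filter and with only the 2 strains fitted, 6 with the authors' values, 2 with scan as a block, and 3 (without Dahl S replicate 2) to 12 (without SHR replicate 3) without 1 array. The percentile over unmarked spots moved the median of all tested probes to 0.36 in SHR minus Dahl R and -0.37 in Dahl S minus SHR, and the member medians to 0.0477 and -0.23. These counts stand without the share of all tested probes called under each setting, so they do not set the members apart from other probes. Apart from fewer arrays or probes in the fit, causes were not tested.

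Replicate numbers are not said to pair animals, and deviations of same-numbered arrays correlated with r of -0.164 to 0.0682, so the arrays were not paired. With the replicate block the counts were 0, 8 and 5 in the same order of comparisons.

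Of 81 member differences not past the threshold, 38 changed sign under at least 1 of 8 settings compared, 34 of them under 0.5 in size as reported; for example, Gclc in SHR minus Dahl R was 0.04 with the percentile over unmarked spots. Others included Gsta6 in Dahl S minus Dahl R (1.01 under normexp), Gpx8 in Dahl S minus Dahl R (-4.18 to 0.00554 without 1 array, the highest without Dahl S replicate 1), Gstm7 in Dahl S minus Dahl R (0.31 with array weights, -2.54 to 1.03 without 1 array, the highest without Dahl S replicate 1) and in Dahl S minus SHR (0.65, and -2.10 to 1.47), and Gstm5 in SHR minus Dahl R (0.0634 under normexp, 0.44 with scan as a block and within scan 2, 0.38 with array weights, -0.74 to 0.40 without 1 array, the highest without SHR replicate 3). Signal over background limits Gsta6, Gpx2, Gstm3, Gstp3 and Gpx6, which were dim, most of all on SHR replicate 3.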
